A study of Homo sapiens with 4 samples.

Results

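The genes of the proteasome and of the factors that assemble it were followed in Huh7, a human hepatoma cell line, after a lentivirus carrying ISL1 or a blank lentivirus. ISL1 is a transcription factor with LIM domains and a homeodomain, known from developing motor neurons, heart and islets. Members were all symbols in the 4 expression tables that begin with PSMA to PSMG followed by a number, which gave 49 of 19782 listed genes. Of these, 46 are proteasome genes, and 44 of them were among the 11085 genes tested. Both groups had 2 libraries, replicates 1 and 2. All 4 came from cells labelled as passage 3, and every library had received a lentivirus, so no culture without virus is in the design. The second ISL1 library carries the name ISL2 in its title, while the study's design speaks of ISL1 and blank virus alone, each in duplicate, and the header of its table names ISL without a number; it is used here as an ISL1 library. No label says whether duplicates were separate cultures, so a p-value reflects the spread of these libraries alone, and that spread may be technical. PSMA8 and PSMB11 were not analysed here.

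The proteasome is the protease that removes most proteins tagged with ubiquitin. Its core particle stacks alpha rings, which gate the entry, on the beta rings that hold the cutting sites. A regulatory particle caps the core: its base holds a ring of PSMC ATPases that unfolds the substrate, and its lid removes the ubiquitin chain. Other caps (the PSME activators) open the core without ATP, and PSMG and some PSMD proteins are chaperones that put core and base together and then leave. Subunit genes are known to be raised together by the factor NFE2L1 when the proteasome is short of capacity.

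The libraries held 29429964 to 37134267 reads, recovered from the steps between low values. Within a transcript of 1 kb, 1 read was worth 0.0269 to 0.0340 RPKM (reads divided by the length of the transcript and by the depth of the library). ISL1 stood at 0.0454 and 8.22 RPKM in the blank and ISL1 libraries of replicate 1, and at 0 (as listed) and 1801 RPKM in those of replicate 2. ISL2 stood at 4.57, 2.08, 3.23 and 13.2 RPKM in the same order. The tables of the replicate numbers had different gene lists and resembled each other less than the tables of a number did: log2(RPKM + 1) correlated across genes at r = 0.976 and 0.931 within replicates 1 and 2, against 0.582 between the blank libraries. Each replicate number holds 1 library of each group, so differences are given within a number, called a pair here. Albumin (ALB) at 7749, 8617, 7386 and 3977 RPKM and alpha-fetoprotein (AFP) at 11311, 10266, 11542 and 4276 RPKM were among the most abundant transcripts, as the label of hepatoma cells implies, while HNF4A, a liver transcription factor, was at the code for 0 in the first blank library and at 0.0335, 96.7 and 38.0 RPKM in the first ISL1, second blank and second ISL1 libraries. The 11 hepatocyte and hepatoma markers summed to 21381 and 22231 RPKM in the first pair and to 24954 and 11456 in the second, where all 11 were lower with ISL1. Erythroid markers summed to 1003 RPKM in the second blank library and to at most 1.399 in the others, and cardiac markers to 49.9 RPKM in the second ISL1 library and at most 1.23 elsewhere. The part of these shifts in the second pair's proteasome differences was not tested, and in bulk RNA fewer cells of a type and less RNA per cell cannot be told apart.

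Proteasome transcripts were abundant. Summed over the 44 members they reached 2595 RPKM in the first blank library and 3188 in the first ISL1 library, and 4216 and 4198 in the second blank and ISL1 libraries. The first pair thus summed higher with ISL1 and the second pair did not. Much of the distance between replicate numbers came from a subset of genes. Blank levels lay within 2-fold of each other for 20 of 44 members, while 24 were at least 2-fold higher in the second blank library and none was lower by that much. Across all genes tested the share at least 2-fold higher in the second blank library was 52.7%, close to the members' share. The 13 members with 1 RefSeq transcript (current release) all had blank levels within 2-fold, with ratios of 0.640 to 1.29. Of the 12 members with 2 transcripts 3 did, and of the 19 with more, 4 did. Over all genes the counts were 2549 of 3246 with 1 transcript, 795 of 2226 with 2 and 1632 of 5583 with more. The length behind each RPKM value, solved from whole reads, was the same in both replicate numbers (up to a small whole factor) for 16 of the 20 close members and for 5 of the 24 distant ones. The distant members rested on 1 to 1621 reads in the first pair (median 190), and the close ones on 250 to 20048 (median 5443). These reads are the smallest whole solution, so true reads are this number or a whole multiple of it.

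**Figure D1:**
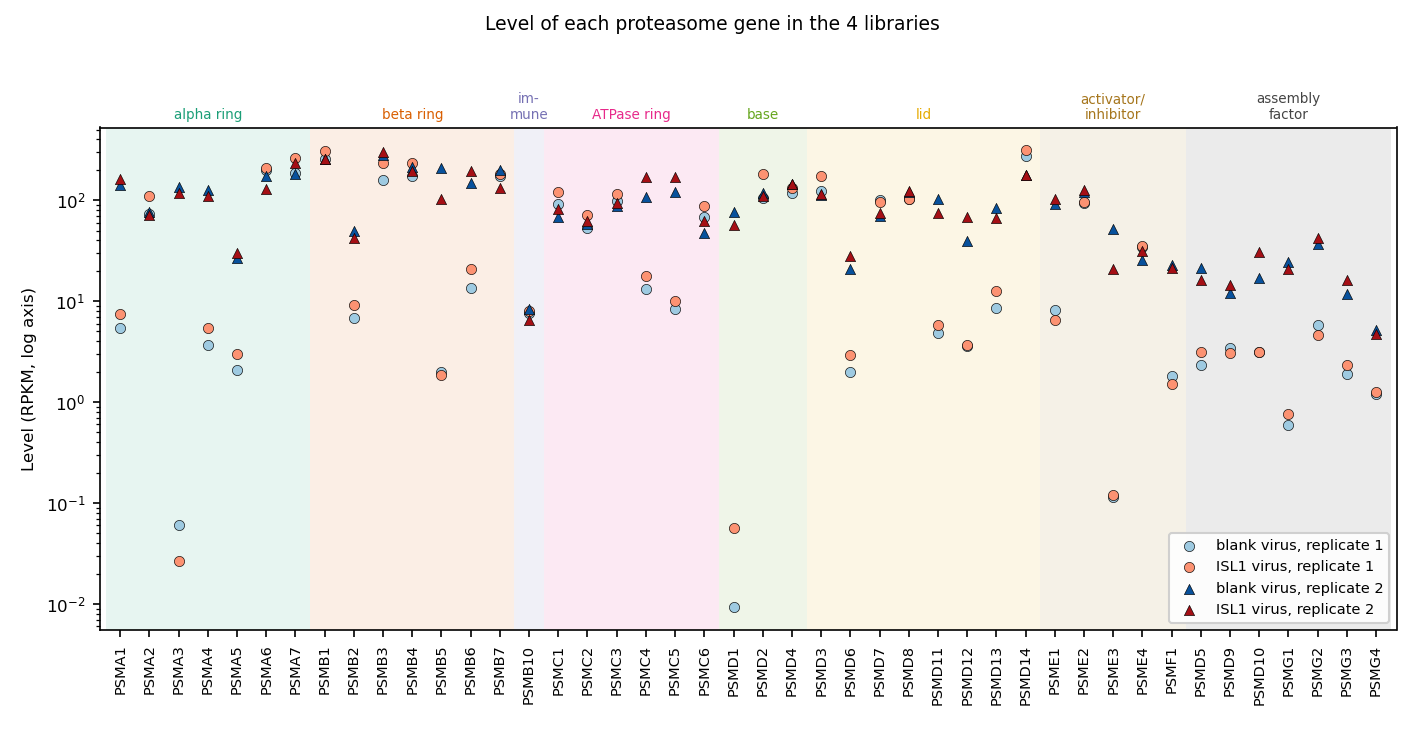
Levels of the proteasome genes (RPKM, log axis) in each of the 4 libraries, ordered by group, 1 point per library. PSMC1 and PSMD14 sit at similar levels in all 4 libraries, while genes such as PSMA3, PSMD1 and PSME3 sit far lower in both libraries of replicate 1 than in those of replicate 2.

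**Figure D2:**
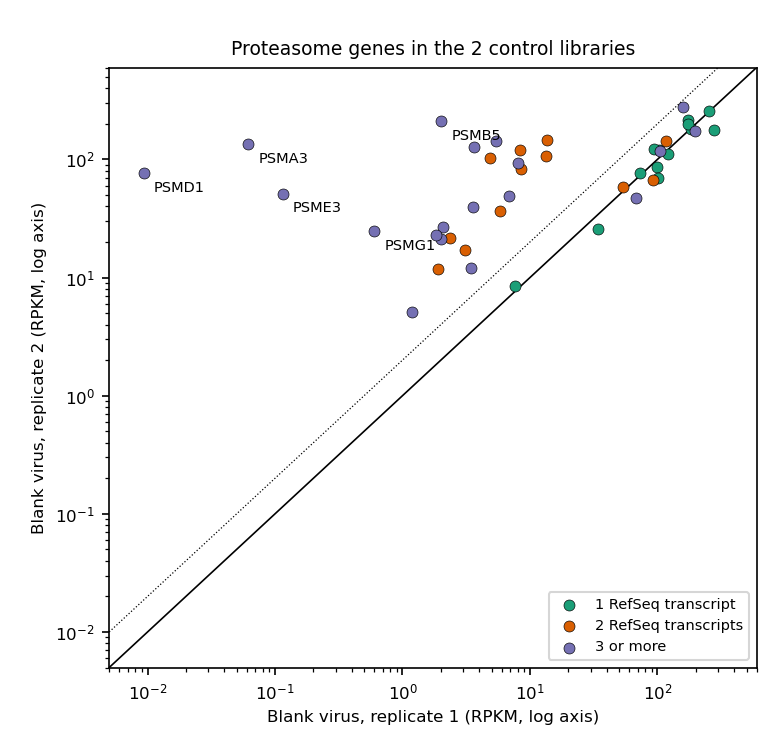
Level of each tested proteasome gene in the first blank library (x axis) against the second (y axis), both in RPKM on log axes, with points marked by the number of RefSeq transcripts. The 13 genes with 1 transcript lie near the diagonal, and 24 of the 44 genes lie at least 2-fold above it.

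No proteasome gene passed the test of ISL1 against blank. limma on log2(RPKM + 1), 2 libraries against 2, gave 0 of 44 members at an adjusted p below 0.05, as it did for 0% of all 11085 genes, and no member had an unadjusted p below 0.05 (15 of all genes did). The smallest unadjusted p among members, for PSMA7, belongs to a log2 fold change of 0.42 (SE 0.25), with a limma adjusted p of 1.00. With the replicate number as a block limma again called 0 members. An exact permutation test of 2 against 2 cannot go below p = 0.333. What follows therefore describes directions and sizes within pairs, where each side is 1 library and no test is possible.

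In the first pair most proteasome genes stood slightly higher with ISL1: 36 of 44 did (81.8%), against 49.4% of all genes tested. The median difference was 0.20 on the log2(RPKM + 1) scale, against -0.0021 over all genes. These first-pair values include PSMA3 (lower) and PSMD1, PSME3 and PSMG1 (higher), whose smallest whole solution there is at most 17 reads. In the second pair 25 of 44 stood higher (56.8%), against 54.6% of all genes, a share near the background. There the median was 0.047 for members and 0.058 for all genes. Dividing by median-ratio size factors changed the all-gene share higher in the second pair to 41.0%, with the all-gene median moving from 0.058 to -0.11. The members' count there became 13 of 44, a smaller share than that of all genes. In the first pair the same scaling gave 39 of 44 members (88.6%), against 57.3% of all genes. As deposited, 57.1% of genes with a mean of at least 20 RPKM stood higher in the first pair, against 27 of the 33 members at that level (81.8%). The members' differences in the first and second pair correlated at Pearson r = 0.138 and Spearman rho = 0.0834 across the 44 genes, which are not independent replicates.

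Across the pairs, 20 of 44 members stood higher with ISL1 in both (45.5%), against 23.1% of all genes, 3 stood lower in both (6.82%), against 19.1%, and 21 went opposite ways (47.7%), against 57.8%. The counts by direction include PSMA3 (lower in both) and PSMD1, PSME3 and PSMG1 (opposite), whose smallest whole solution in the first pair is at most 17 reads. Median-ratio scaling left 11 of 44 higher in both (25.0%), against 19.8% of all genes, a share near the background, and quantile normalization put 7 lower in both (15.9%), against 21.1% of all genes. As deposited, among the 20 members with close blank levels, 11 were higher in both, against 22.1% of all genes with close blank levels, and 0 were lower in both. This count was not repeated under median-ratio scaling. Of the 11, PSMB1, PSMB3, PSMC2, PSMC3 and PSMD4 turned lower in the second pair under that scaling, and PSMA7, PSMC1 and PSMC6 did not. At a mean of at least 20 RPKM, 16 of 33 members were higher in both as deposited, against 26.5% of all genes at that level. Measured from the median difference of all genes in each pair, 16 of 44 members were above it in both, against 21.1% of all genes. As deposited, both ISL1 libraries lay above both blank libraries for 3 members, PSMA7, PSMB1 and PSMC2 (PSMB1 by 0.0011 in the second pair, PSMB1 and PSMC2 not under median-ratio or quantile normalization), against 5.52% of all genes, and below both for 0 members, against 5.08%. This comparison crosses the replicate numbers, so it depends on how they are scaled to each other. For PSMA7 the separation was not tested under other scalings. Changes of at least 1.5-fold on the log2(RPKM + 1) scale were few: in the first pair PSMD2 and PSMB6 were higher (5.99% of all genes) and no member was lower (7.03%). In RPKM without the added 1, PSMD1 (ratio 6.09, on 1 and 7 reads) and PSMA3 (0.435, on 2 and 1 reads) also passed there. In the second pair PSMC4, PSMD12 and PSMD10 were higher by that much (17.8% of all genes) and PSMB5, PSMB7 and PSME3 were lower (12.3%).

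**Figure D3:**
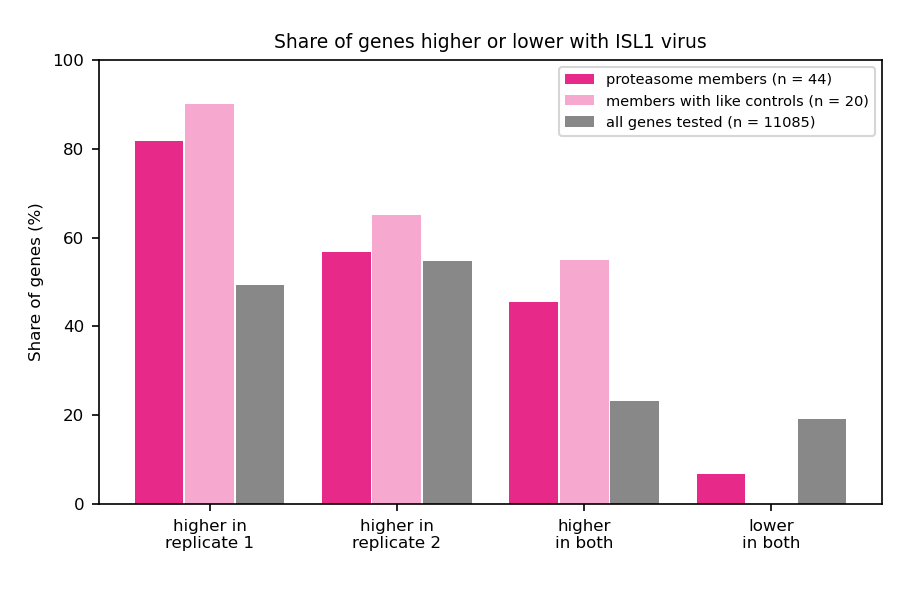
Share of genes (y axis, %) that stood higher with ISL1 in each pair, higher in both or lower in both, for the 44 proteasome members, the 20 members with close blank levels and all 11085 genes tested. The members' bar in the first pair, 81.8%, stands above the all-gene bar of 49.4%, and the bars of the second pair, 56.8% and 54.6%, are close to each other.

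The ATPase ring was the one group of several genes in which every member stood higher with ISL1 in both pairs, 6 of 6, although median-ratio scaling left 4 (not PSMC2 and PSMC3) and quantile normalization 5 (not PSMC2). Over the ring the median was 0.37 in the first pair against 0.34 in the second (0.14 under median-ratio scaling), and all 6 lay above the all-gene median in both. Promoters of these 6 genes are shown because this is the group whose members shared a direction. Each line gives bases 150 before to 30 after a RefSeq start site (180 bases, 5′ to 3′ on the gene's strand, GRCh38.p14), with capitals for matches, on either strand, to the motifs TGACNNNGC (core of the antioxidant response element, which NFE2L1 and its relatives bind), to CCAAT (the box that NF-Y binds), to the ETS factor core CCGGAAG, to the TATA box TATAAA, to GAAANNGAA (core of the interferon response element) and to CTAATG (core of LIM homeodomain sites).
PSMC1 (chr14:90256403-90256582, plus strand): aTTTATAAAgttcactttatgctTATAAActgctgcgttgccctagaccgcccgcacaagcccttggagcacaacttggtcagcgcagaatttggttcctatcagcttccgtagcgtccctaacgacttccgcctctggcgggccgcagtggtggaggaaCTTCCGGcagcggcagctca
PSMC2 (chr7:103347493-103347672, plus strand): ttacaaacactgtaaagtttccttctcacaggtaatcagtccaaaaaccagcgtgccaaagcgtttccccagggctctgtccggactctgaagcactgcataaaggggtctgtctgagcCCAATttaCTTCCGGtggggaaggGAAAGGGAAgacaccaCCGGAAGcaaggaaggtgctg
PSMC3 (chr11:47426410-47426589, minus strand): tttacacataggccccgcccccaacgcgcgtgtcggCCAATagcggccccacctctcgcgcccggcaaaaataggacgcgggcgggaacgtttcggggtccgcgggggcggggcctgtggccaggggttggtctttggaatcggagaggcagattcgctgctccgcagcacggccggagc
PSMC4 (chr19:39971015-39971194, plus strand): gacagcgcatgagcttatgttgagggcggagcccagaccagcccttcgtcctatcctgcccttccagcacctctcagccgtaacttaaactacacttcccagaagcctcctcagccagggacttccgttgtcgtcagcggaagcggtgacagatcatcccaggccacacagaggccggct
PSMC5 (chr17:63827281-63827460, plus strand): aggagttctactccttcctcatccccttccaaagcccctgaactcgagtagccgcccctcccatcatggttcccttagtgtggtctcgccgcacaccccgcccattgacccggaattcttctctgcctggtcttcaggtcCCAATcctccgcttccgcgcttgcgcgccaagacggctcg
PSMC5 (chr17:63827571-63827750, plus strand): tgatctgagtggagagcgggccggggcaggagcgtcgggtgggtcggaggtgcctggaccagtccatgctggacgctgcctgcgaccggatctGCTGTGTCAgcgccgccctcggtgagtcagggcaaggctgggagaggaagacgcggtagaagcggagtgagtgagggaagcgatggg
PSMC6 (chr14:52707050-52707229, plus strand): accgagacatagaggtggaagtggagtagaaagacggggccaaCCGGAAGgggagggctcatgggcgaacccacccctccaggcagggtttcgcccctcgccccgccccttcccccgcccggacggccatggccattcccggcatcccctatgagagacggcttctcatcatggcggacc
In the printed bases PSMC1, PSMC2 and PSMC6 held the ETS core, PSMC2, PSMC3 and one PSMC5 start held CCAAT, PSMC2 held GAAANNGAA, and the other PSMC5 start held the antioxidant core. PSMC4 also held the antioxidant core, in a match that begins at base 28 and runs past the printed bases. The TATAAA matches of PSMC1 include an overlapping pair on opposite strands, and no ATPase window held CTAATG. Over the full windows of the table (250 before to 50 after), sequence was found for 40 of 46 members in 49 windows. The antioxidant core was in 30.6% of those windows against 13.3% of all 35116 windows, the ETS core in 28.6% against 10.3%, CCAAT in 38.8% against 34.6%, GAAANNGAA in 16.3% against 8.11%, TATAAA in 8.16% against 11.5% and CTAATG in 4.08% against 6.49%. A match is a description and not a site of binding. The 14 tested members with the antioxidant core had median differences of 0.10 and 0.13 in the first and second pair, and the 24 without it 0.22 and -0.094.

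Each ATPase has its own place in the ring and its own tail that docks into the alpha ring. PSMC1 stood at 91.9 (blank) and 119 RPKM (ISL1) in replicate 1, and 67.6 and 82.2 in replicate 2. PSMC2 stood at 53.4 (blank) and 71.4 RPKM (ISL1) in replicate 1, and 58.2 and 62.0 in replicate 2. PSMC3 stood at 98.9 (blank) and 116 RPKM (ISL1) in replicate 1, and 86.8 and 92.7 in replicate 2. In these 3 genes the blank levels of the replicates were close, and the ISL1 library was the higher one of each pair, but the blank and ISL1 ranges overlapped for PSMC1 and PSMC3. PSMC6 was likewise close between blanks, at 67.8 (blank) and 87.2 RPKM (ISL1) in replicate 1, and 47.5 and 62.7 in replicate 2. PSMC4 and PSMC5 were the low ones in replicate 1: PSMC4 stood at 13.3 (blank) and 17.8 RPKM (ISL1) in replicate 1, and 106 and 168 in replicate 2. PSMC5 stood at 8.32 (blank) and 10.01 RPKM (ISL1) in replicate 1, and 120.4 and 169 in replicate 2. The pair differences ran from 0.23 (PSMC3) to 0.41 (PSMC2) in replicate 1 and from 0.089 (PSMC2) to 0.66 (PSMC4) in replicate 2. The pooled log2 fold change was 0.38 (SE 0.36) for PSMC6 and 0.53 (SE 1.63) for PSMC4, both with a limma adjusted p of 1.00. For PSMC4 the blank libraries alone lay 8.02-fold apart, a gap that enters this SE. With the replicate number as a block the SE was 0.34 for each of PSMC6 and PSMC4, and limma called neither.

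**Figure D4:**
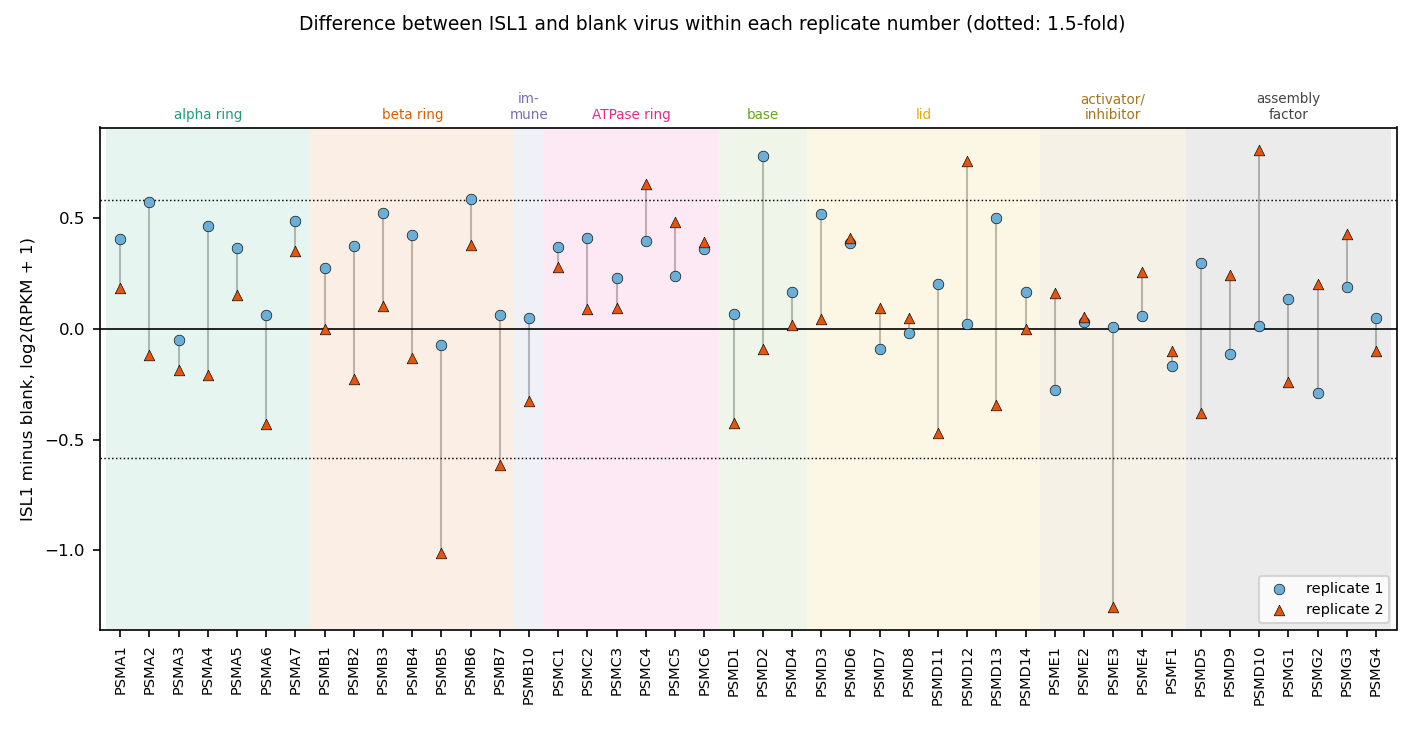
Difference of ISL1 minus blank on the log2(RPKM + 1) scale (y axis) for each tested proteasome gene, 1 point per pair, ordered by group. Both points of all 6 ATPase genes are above 0 (as deposited; 4 genes under median-ratio and 5 under quantile normalization), and the lowest points are PSME3 and PSMB5 in replicate 2.

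The alpha ring, whose 7 subunits gate the core, split by pair. In the first pair 6 of 7 stood higher with ISL1, with a median difference of 0.41, and in the second 3 of 7 did, with a median of -0.12 (-0.32 under median-ratio scaling). PSMA7 stood at 185 (blank) and 259 RPKM (ISL1) in replicate 1, and 181 and 232 in replicate 2, so both ISL1 libraries were above both blank libraries as deposited. PSMA2 had the largest alpha-ring difference of the first pair and stood at 73.3 (blank) and 109.7 RPKM (ISL1) in replicate 1, and 76.8 and 70.6 in replicate 2. Its difference was 0.57 in replicate 1 and -0.12 in replicate 2, where the ISL1 library was the lowest of the 4. PSMA6 had the lowest alpha-ring difference of the second pair, at 198 (blank) and 207 RPKM (ISL1) in replicate 1, and 173 and 128 in replicate 2. Levels of PSMA3 could not be compared in replicate 1, where 0.0611 and 0.0266 RPKM rest on 2 and 1 reads, while replicate 2 listed 134 and 118 RPKM. The other members, PSMA1, PSMA4 and PSMA5, were all higher in the first pair, by 0.37 to 0.47, and ranged from -0.21 to 0.19 in the second. These 3 had blank levels far apart, such as 5.38 and 142 RPKM for PSMA1.

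The constitutive beta ring also had 6 of 7 members higher in the first pair (median 0.38) and 3 of 7 in the second (median -0.13, or -0.33 under median-ratio scaling). Its cutting subunits differed among themselves. PSMB5, the chymotrypsin-like subunit, stood at 2.00 (blank) and 1.86 RPKM (ISL1) in replicate 1, and 210.3 and 104 in replicate 2. The second pair held 6905 and 2926 reads, and the ISL1 level was 0.494 of the blank level (95% interval 0.472 to 0.515, which covers counting error only). PSMB7, the trypsin-like subunit, stood at 175 (blank) and 183 RPKM (ISL1) in replicate 1, and 201 and 131 in replicate 2. It was close to level in the first pair, at 0.066, and lower with ISL1 in the second, at -0.62. PSMB6, the caspase-like subunit, went the other way and was higher with ISL1 in both pairs, at 13.6 (blank) and 20.9 RPKM (ISL1) in replicate 1, and 147 and 192 in replicate 2. In the second pair PSMB5 and PSMB7 were lower with ISL1 and PSMB6 was higher, so the 3 cutting subunits, which each core holds in equal number, did not share a direction in these libraries. Under each pseudocount, filter and scaling tried PSMB5 and PSMB7 were lower in the second pair, at -0.98 to -1.21 and at -0.60 to -0.81 on the log2 scale.

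The 4 beta subunits without a cutting site were PSMB1 to PSMB4. PSMB1, at 255 (blank) and 308 RPKM (ISL1) in replicate 1, and 255 and 255 in replicate 2, had both ISL1 libraries above both blank libraries, though in the second pair the difference was 0.0011 and turned negative under median-ratio, upper-quartile and quantile scaling. PSMB3 stood at 160.1 (blank) and 231 RPKM (ISL1) in replicate 1, and 279 and 300.3 in replicate 2, higher in both pairs, by 0.52 and 0.11 (-0.096 in the second under median-ratio scaling). PSMB2 and PSMB4 were higher in the first pair, by 0.38 and 0.43, and lower in the second, at -0.23 and -0.13.

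The immune cutting subunits, which interferon induces in place of the constitutive ones, were low. PSMB10, which replaces PSMB7, stood at 7.60 (blank) and 7.90 RPKM (ISL1) in replicate 1, and 8.45 and 6.54 in replicate 2, and its differences were 0.050 and -0.33. PSMB8, which replaces PSMB5, and PSMB9, which replaces PSMB6, were listed in the replicate 2 tables only. PSMB8 stood there at 0.0514 and 0.0599 RPKM, on 2 and 2 reads. PSMB9 stood at 0.278 and 0.324 RPKM, on 5 and 5 reads. At these reads no difference between blank and ISL1 was detectable. Their constitutive partners were far more abundant in the same libraries, PSMB5 at 210.3 and 104 RPKM.

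Beside the ATPases, the base holds the scaffolds PSMD1 and PSMD2 and the ubiquitin receptor PSMD4. PSMD2, which also binds shuttle factors, had the largest difference of any member in the first pair, 0.78, from levels of 105 (blank) and 182 RPKM (ISL1) in replicate 1, and 117 and 109.7 in replicate 2. Its first ISL1 library stood above the other 3, which lay close together. PSMD4 stood at 117 (blank) and 131 RPKM (ISL1) in replicate 1, and 143 and 145 in replicate 2, a difference of 0.17 and 0.017 (the latter -0.18 under median-ratio scaling). PSMD1 stood at 0.00930 and 0.0566 RPKM in replicate 1, on 1 and 7 reads, and stood at 76.1 and 56.4 RPKM in replicate 2, where the difference was -0.42.

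Of the 8 lid genes 6 stood higher with ISL1 in the first pair (median 0.19) and 5 in the second (median 0.047), 3 of them in both. The lid's first-pair median was 0.30 under median-ratio scaling, and its second-pair median turned to -0.15, -0.025 and -0.011 under median-ratio, upper-quartile and quantile scaling. PSMD14, the deubiquitinase of the lid, was among the most abundant members, at 277 (blank) and 311 RPKM (ISL1) in replicate 1, and 177 and 177 in replicate 2, and in the second pair the libraries were level. PSMD7, its inactive partner, stood at 101 (blank) and 95.2 RPKM (ISL1) in replicate 1, and 69.2 and 73.9 in replicate 2, the lowest difference of the group in the first pair (-0.090). PSMD3, a structural lid subunit, had the highest, 0.52, at 122 (blank) and 175 RPKM (ISL1) in replicate 1, and 112 and 116 in replicate 2. PSMD12 and PSMD11 are structural subunits as well and diverged in the second pair. PSMD12 stood at 3.60 (blank) and 3.68 RPKM (ISL1) in replicate 1, and 39.5 and 67.6 in replicate 2. PSMD11 stood at 4.87 (blank) and 5.77 RPKM (ISL1) in replicate 1, and 103 and 74.2 in replicate 2. The second-pair difference was 0.76 for PSMD12 and -0.47 for PSMD11. PSMD6 was higher in both pairs, by 0.39 and 0.41, PSMD8 differed by -0.020 and 0.049, and PSMD13 was higher in replicate 1 (0.50) and lower in replicate 2 (-0.34).

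The activators and the inhibitor did not move as a group, with 3 of 5 higher in each pair and medians of 0.0083 and 0.056, the second turning to -0.14 under median-ratio scaling and the first to -0.0081 under quantile normalization. PSME3, the nuclear activator known for degrading proteins without ubiquitin, had the lowest difference of all members in the second pair, -1.26. It stood at 0.115 (blank) and 0.121 RPKM (ISL1) in replicate 1, and 51.2 and 20.9 in replicate 2. In the second pair 5670 and 1981 reads gave a ratio of 0.407 (95% interval 0.386 to 0.428, counting error only), while in the first pair 14 and 17 reads gave a ratio of 1.06 (0.490 to 2.31). Under each pseudocount, filter and scaling tried the second-pair difference lay between -1.12 and -1.45. PSME1 and PSME2 form one interferon-inducible activator together. PSME1 stood at 8.09 (blank) and 6.51 RPKM (ISL1) in replicate 1, and 92.6 and 104 in replicate 2. PSME2 stood at 94.1 (blank) and 96.4 RPKM (ISL1) in replicate 1, and 122 and 126 in replicate 2. The difference was -0.27 and 0.16 for PSME1 and 0.034 and 0.056 for PSME2. PSME4, an activator known for acetylated histones in sperm and repair, stood at 34.1 (blank) and 35.5 RPKM (ISL1) in replicate 1, and 25.8 and 31.0 in replicate 2 and was higher in both pairs. PSMF1, an inhibitor of the core in vitro, stood at 1.82 (blank) and 1.51 RPKM (ISL1) in replicate 1, and 22.9 and 21.3 in replicate 2 and was lower in both, by little (-0.17 and -0.100).

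Among the 7 assembly factors 5 stood higher in the first pair (median 0.048) and 4 in the second (median 0.21, or 0.0089 under median-ratio scaling). PSMG1 and PSMG2 act as a dimer that builds the alpha ring. PSMG1 stood at 0.598 (blank) and 0.756 RPKM (ISL1) in replicate 1, and 24.6 and 20.7 in replicate 2, with 11 and 16 reads as the smallest whole solution in replicate 1. PSMG2 stood at 5.84 (blank) and 4.60 RPKM (ISL1) in replicate 1, and 36.7 and 42.5 in replicate 2. The partners differed in direction in both pairs, at 0.14 and -0.24 for PSMG1 and -0.29 and 0.21 for PSMG2. The second dimer, PSMG3 and PSMG4, was low. PSMG3 stood at 1.91 (blank) and 2.32 RPKM (ISL1) in replicate 1, and 11.7 and 16.1 in replicate 2. PSMG4 stood at 1.19 (blank) and 1.26 RPKM (ISL1) in replicate 1, and 5.12 and 4.72 in replicate 2.

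PSMD5, PSMD9 and PSMD10 are chaperones of the ATPase base. PSMD10, also called gankyrin and known as overexpressed in hepatocellular carcinoma, had the highest difference of any member in the second pair, 0.81, and was close to level in the first (0.013, or -0.0021 under upper-quartile scaling). Its levels were 3.11 (blank) and 3.14 RPKM (ISL1) in replicate 1, and 17.0 and 30.5 in replicate 2. PSMD9 stood at 3.43 (blank) and 3.09 RPKM (ISL1) in replicate 1, and 12.0 and 14.5 in replicate 2. PSMD5, at 2.35 (blank) and 3.12 RPKM (ISL1) in replicate 1, and 21.5 and 16.3 in replicate 2, was higher with ISL1 in replicate 1 (0.30) and lower in replicate 2 (-0.38). 

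Symbols that matched the rule without being proteasome genes were kept apart. PSMC3IP, a cofactor of homologous recombination, stood at 0.494 (blank) and 0.843 RPKM (ISL1) in replicate 1, and 14.2 and 19.2 in replicate 2, on 28 and 55 reads in replicate 1. The antisense RNAs PSMD6-AS2 and PSMG3-AS1 were listed in replicate 1 only, PSMD6-AS2 at 0.230 and 0.179 RPKM and PSMG3-AS1 at 0.0266 and 0.00925. Strand use is not given in the sources used here, so reads of a gene and its antisense partner cannot be told apart.

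Related genes were read from lists of the same pathway, and limma called none of them (0 of 12 proteasome-associated, 0 of 11 around NFE2L1, 0 of 12 in ubiquitin supply, 0 of 13 shuttles and VCP adaptors, 0 of 12 in class I presentation). SHFM1, a small lid subunit outside the PSM symbols, stood at 216 (blank) and 311 RPKM (ISL1) in replicate 1, and 235 and 290.3 in replicate 2. POMP, the chaperone that matures the beta rings, stood at 71.8 (blank) and 82.4 RPKM (ISL1) in replicate 1, and 58.3 and 80.3 in replicate 2. Both were higher with ISL1 in both pairs, as were 5 of the 12 in that list, while 2 were lower in both. The list's medians were 0.10 and 0.53. Over all genes tested, 23.1% were higher in both pairs and 19.1% lower in both, with medians of -0.0021 and 0.058. These all-gene values are the background for every list here. UBE3C, a ligase that rides on the proteasome, and AKIRIN2, which carries it into the nucleus, went apart in the second pair, at -0.97 and 1.11. NFE2L1 itself stood at 108 (blank) and 56.8 RPKM (ISL1) in replicate 1, and 72.9 and 96.3 in replicate 2, lower with ISL1 in the first pair and higher in the second. MAFF, a small partner of NFE2L1 on DNA, stood at 1.03 (blank) and 0.446 RPKM (ISL1) in replicate 1, and 9.12 and 32.4 in replicate 2. DDI2, the protease that activates NFE2L1, stood at 4.85 (blank) and 6.08 RPKM (ISL1) in replicate 1, and 11.01 and 6.67 in replicate 2. Of the 11 genes of this list 1 was higher in both pairs and 0 were lower in both, with medians of -0.17 and 0.40.

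Among the genes that supply ubiquitin, UBB, which encodes ubiquitin as a head-to-tail chain, stood at 731 (blank) and 871 RPKM (ISL1) in replicate 1, and 732 and 1256 in replicate 2. The second ISL1 library was the highest of the 4, and UBB was higher with ISL1 in both pairs, by 0.25 and 0.78. As deposited, both ISL1 libraries lay above both blank libraries, as for 5.52% of all genes, and limma did not call the gene. The same held for SHFM1, POMP, UBQLN2 and PDIA3. These genes were named for small limma p-values within their lists, a choice that favours such a separation. Over the ubiquitin list 5 of 12 were higher in both pairs (23.1% of all genes) and 2 lower in both (19.1%), with medians of 0.060 and 0.33. Among shuttles and VCP adaptors 4 of 13 were higher in both and 3 lower in both (medians -0.021 and 0.35), with UBQLN2, which ferries ubiquitinated proteins to the base, at 9.45 (blank) and 13.6 RPKM (ISL1) in replicate 1, and 12.1 and 23.9 in replicate 2. In class I presentation, which uses proteasome peptides, 3 of 12 were higher in both and 2 lower in both (medians -0.18 and 0.39). PDIA3, a disulfide isomerase of the peptide loading complex, stood at 156 (blank) and 249 RPKM (ISL1) in replicate 1, and 197 and 279 in replicate 2.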

How the data were processed

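RNA of Huh7 cells was sequenced in 4 libraries, 2 per virus. The authors deposited 1 table of RPKM values per library, with no counts. Per the submitters' processing notes, CASAVA 1.4 and BWA were used with build hg19. Annotation, counting program and strand use: not given in the sources used here. Tables were joined by symbol, and the 11085 genes tested were in all 4 tables and reached 1 RPKM in 2 or more libraries. limma 3.58.1 (R 4.3.3, trend, 2 residual degrees of freedom) was run on log2(RPKM + 1), a scale that understates the change of low genes, two-sided, with Benjamini-Hochberg adjustment over all genes and a threshold of 0.05. Without the replicate block, the SE of the members' log2 fold changes ran from 0.25 to 3.68, and with it from 0.32 to 0.41. The smallest change that limma could call at this spread was not tested.

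Depth was solved from whole-number ratios: 96.5% (replicate 1) and 94.3% (replicate 2) of low genes stood in such ratios, against 0.361% and 0.481% after an arbitrary factor. The multiple for replicate 2 is the one at which 63.0% of gene lengths repeat those of replicate 1 (next best 44.0%). Reads are whole within 0.0003 and known up to a whole multiple, so no count model was run. Limits and intervals cover counting error only.

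The members and lists were chosen with earlier results of these data known. The rule for named genes gives all 4 values for cutting subunits, activators, the inhibitor and assembly factors. In every other group it gives them for the member with the largest and smallest difference of each pair and for those with both ISL1 libraries on one side of both controls. Up to 4 genes per pathway list with the smallest limma p could be named; not every such gene is reported here. The remaining members were named for completeness, after their values were seen. Marker sums also covered leukocyte, stromal, endothelial, thymic and germ cell genes. Promoter sequence is from RefSeq (GRCh38.p14). Joins, counts and plots were made with Python 3.11.15, with pandas 2.3.3, NumPy 2.4.6, matplotlib 3.10.9 and SciPy 1.17.1. Alternatives were other pseudocounts, filters, scalings, the replicate number as a block and leaving out each library.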

Additional observations from a re-analysis of the deposited data

How the results depend on the processing

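Other pseudocounts and filters left limma at 0 called genes. So did leaving out each library in turn, but those fits set 1 library against 2 and take the spread from the other group alone, assuming that the lone library varies like it, so their 0 calls say nothing about stability. Quantile normalization called 1 gene, ISL1 itself (log2 fold change 6.75, limma adjusted p = 0.00152). The labels do not say that a replicate number marks a shared batch, and there are only 2 pairs; deviations of same-numbered libraries from their group means correlated at 0.882 across all genes and 0.978 across members. With the number as a block limma called 0 genes, with 260 at an unadjusted p below 0.05 (15 without). Differences within a pair have no test.

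Median-ratio scaling moved the members' median to 0.31 (first pair) and -0.15 (second) and left 11 of 44 members higher in both pairs (25.0%, against 19.8% of all genes). It also put the ATPase medians at 0.48 and 0.14, the second-pair medians of base, lid, activators and assembly factors at -0.29, -0.15, -0.14 and 0.0089, and the lid's first-pair median at 0.30. It left 1 proteasome-associated gene and 1 shuttle gene lower in both pairs. Quantile normalization put 7 members lower in both pairs, the ATPase medians at 0.30 and 0.26, the first-pair base median at 0.37 and the second-pair activator median at -0.0074. Upper-quartile scaling put the second-pair ATPase and activator medians at 0.26 and -0.016. The first-pair ATPase median was 0.33 with a pseudocount of 5, and the first-pair base median 0.52 with a pseudocount of 0.1. Over the 20 members with close blank levels, a split chosen after the data were seen, 11 were higher in both pairs as deposited, 0 lower in both and 9 opposite. Of 614 values of single genes under the alternatives 553 moved by less than the spread between pairs and 61 by more. The sign turned in 30 of the 614, 15 under median-ratio scaling and 23 in the second pair, all for differences of at most 0.19. The cause of these shifts was not tested. In replicate 1, the smallest whole solution for PSMA3, PSMD1, PSME3 and PSMG1 is at most 17 reads, so their differences there are uncertain. The cause of these low reads was not tested.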

Other observations

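Levels of marker lists for other cell types, read beside the members, were as follows. Leukocyte markers summed to 53.6 and 50.3 RPKM in the first pair and 117 and 99.8 in the second, almost wholly from LYZ and CD68. Stromal markers summed to 2.96, 3.80, 7.56 and 12.8 RPKM in the same order. Endothelial markers summed to 8.61, 2.47, 10.6 and 1.46 RPKM, mostly from PECAM1. Thymic cortical and germ cell markers, which go with the tissue-specific core subunits, summed to at most 0.0459 and 1.07 RPKM in any library.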
